A study of Mus musculus with 8 samples.

Results

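The genes described here carry a cell through mitosis and cytokinesis, and were taken by symbol from the deposited expression table: mitotic kinases and cyclins, spindle checkpoint and kinetochore genes, condensin and other chromosome genes, spindle motors and cytokinesis genes. The list holds 48 genes, all of them found among the 35275 genes of the table. PolyA RNA of mouse heart ventricle was sequenced in 8 libraries. In 4 libraries (labelled RBX2iCKO) Rbx2, which encodes the RING subunit of a cullin ubiquitin ligase and has the gene symbol Rnf7, had been deleted by Mer-Cre-Mer, a tamoxifen-activated Cre driven by the cardiomyocyte promoter αMHC. The other 4 are labelled WT. All 8 libraries are labelled as tamoxifen-treated and their titles all begin with MCM, and the mice are described as adult, with no age, sex or strain in the labels. Cardiomyocytes are given as the cell type, but RNA came from whole minced ventricle, and transcripts of non-muscle cells were present in all libraries. The question here is how far the levels of mitotic genes differed between RBX2iCKO and WT ventricles.

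Mitosis is driven by cyclin-dependent kinase 1 bound to cyclin B, which starts chromosome condensation and spindle assembly. The spindle checkpoint holds the cell until every kinetochore is attached, and the anaphase-promoting complex (APC/C) then marks cyclin B and securin for degradation. Cytokinesis follows through a central spindle and a contractile ring. Most of these genes are transcribed in the G2 and M phases, under the MuvB complex with B-MYB and FOXM1 and through promoter elements known as CHR and CCAAT boxes. Adult mouse cardiomyocytes have for the most part left the cell cycle, and dividing cells of the adult ventricle are mainly non-muscle cells.

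Rnf7 checked the labels. It was 36.7, 35.3, 40.7 and 36.5 FPKM (fragments per kilobase of gene and per unit of library depth) in the WT libraries and 7.53, 7.08, 6.86 and 7.13 FPKM in the RBX2iCKO libraries, a fall of 2.23 on the log2(FPKM + 1) scale (two-sided exact permutation p = 0.0286, the smallest that 4 against 4 libraries can give). Esr1, whose ligand-binding region the Mer-Cre-Mer fusion carries, was 2.06, 0.203, 0.534 and 0.231 FPKM across the WT libraries, against 324, 391, 266 and 341 across RBX2iCKO. The Cre transgene was therefore abundant in one group, and its presence and the loss of Rbx2 cannot be told apart. The libraries held 18513924 to 23043686 counted fragments, and transcripts of the mitochondrial genome took 22.51% to 25.05% of them in WT and 14.6% to 18.87% in RBX2iCKO. FPKM is a share of the library, and the median gene was higher by 0.18 (log2) in RBX2iCKO as deposited and by 0.02 after median-of-ratios scaling, so each count is given on both scales.

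Most of the mitotic genes were higher in RBX2iCKO. On the deposited values 41 of 48 rose (limma, Benjamini-Hochberg adjusted p under 0.05 over all 16363 genes tested), beside 26.4% of all genes tested, and 1 fell, Cenpf, beside 2.73%. After scaling, 30 of 48 rose, beside 6.44% of all genes, and Cenpf again fell, beside 8.65%. With limma voom on the whole fragments recovered from the FPKM, 32 rose and 1 fell, beside 6.53% and 8.6% of all genes. The same 30 genes rose by all 3 of these fits. The tested genes had a mean of at least 0.1 FPKM over the 8 libraries, and 4 of the 48 (Cdc25c, Melk, Ncapg and Ska1) reached it only through the RBX2iCKO libraries, so that they had to differ to be tested. Among the 44 whose WT mean alone reached the minimum, 38 rose as deposited and 29 after scaling, beside 27.0% and 6.47% of the genes that met the same condition. The 6 that did not pass the test as deposited were Kif15, Bub1, Ska1, Kif2c, Ttk and Mybl2, whose log2 differences were all positive. Over all genes tested 80.2% of the differences as deposited were positive.

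The WT libraries held little of these transcripts. The WT mean was under 1 FPKM for 43 of the 48, while the median gene of those tested stood at 3.14 FPKM in WT. In RBX2iCKO the mean reached at least 1 FPKM for 30. The ratio of mean FPKM, RBX2iCKO over WT, was at least 2 for 43 genes and at least 4 for 26, with a median of 4.25 beside 1.23 over all genes. The median log2 difference was 0.61 as deposited and 0.51 after scaling, in log2(FPKM + 1), where the added 1 makes the change of a low gene look smaller. All 4 RBX2iCKO libraries stood above all 4 WT libraries for 41 genes (29.5% of all genes did so) and below them for Cenpf (3.26%). After scaling, 35 genes were so separated upward, beside 10.1% of all genes. Cdc25c, Melk, Ncapg and Ska1, tested only through their RBX2iCKO level, are counted in the 41, the 35 and the 43. All but Melk are also counted in the 26. The place of these genes in the counts was therefore set in part by the minimum level for testing.

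**Figure D1:**
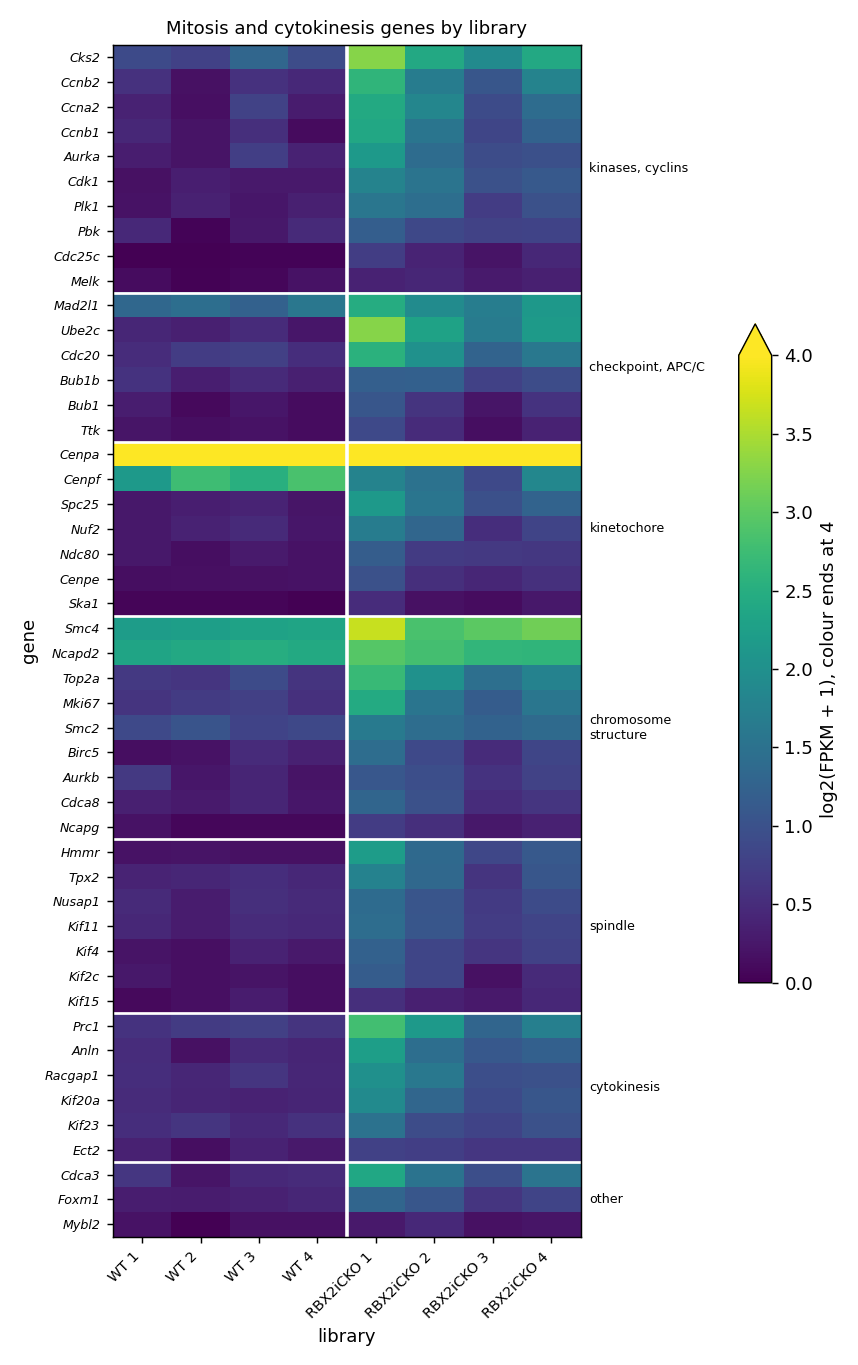
Levels of the 48 genes (rows, by role and then by mean level) in the 8 libraries (columns), as log2(FPKM + 1), with colour from 0 to 4. The WT columns are dark for all but a few rows, and RBX2iCKO replicate 1 is the brightest column for 43 of the 48 genes.

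The promoters of the genes that moved were read for the CHR and CCAAT elements named above. The 4 genes that rose with the smallest p and had a promoter in the RefSeq table (GRCm38.p6) are shown with Cenpf, the gene that fell, each from 250 bases before to 50 bases after the transcript start, 5′ to 3′ on the gene's strand. Capitals mark matches to the CHR core (TTTGAA, or TTCAAA on the other strand) and to the CCAAT box (CCAAT, or ATTGG on the other strand). Ube2c lies at chr2:164769679-164769978 (plus strand), Cdk1 at chr10:69352863-69353162 (minus), Cks2 at chr13:51644982-51645281 (plus), Top2a at chr11:99024140-99024439 (minus) and Cenpf at chr1:189688037-189688336 (minus).
Ube2c: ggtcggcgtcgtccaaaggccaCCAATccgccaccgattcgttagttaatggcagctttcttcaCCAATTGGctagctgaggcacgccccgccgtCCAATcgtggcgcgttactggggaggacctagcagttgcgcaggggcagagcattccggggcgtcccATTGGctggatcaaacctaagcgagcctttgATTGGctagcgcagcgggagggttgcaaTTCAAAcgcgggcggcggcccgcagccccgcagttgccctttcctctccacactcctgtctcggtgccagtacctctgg
Cdk1: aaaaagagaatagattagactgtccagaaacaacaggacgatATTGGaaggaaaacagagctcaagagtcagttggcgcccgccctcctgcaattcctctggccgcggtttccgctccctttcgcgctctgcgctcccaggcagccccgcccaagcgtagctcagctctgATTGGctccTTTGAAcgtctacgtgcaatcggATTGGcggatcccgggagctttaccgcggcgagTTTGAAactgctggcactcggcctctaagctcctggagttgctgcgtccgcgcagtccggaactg
Cks2: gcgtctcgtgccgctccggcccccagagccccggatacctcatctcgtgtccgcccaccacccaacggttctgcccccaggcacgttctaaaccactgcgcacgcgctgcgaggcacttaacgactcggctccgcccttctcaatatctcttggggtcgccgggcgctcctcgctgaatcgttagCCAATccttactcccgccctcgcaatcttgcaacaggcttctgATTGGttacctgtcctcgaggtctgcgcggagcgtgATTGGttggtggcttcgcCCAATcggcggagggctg
Top2a: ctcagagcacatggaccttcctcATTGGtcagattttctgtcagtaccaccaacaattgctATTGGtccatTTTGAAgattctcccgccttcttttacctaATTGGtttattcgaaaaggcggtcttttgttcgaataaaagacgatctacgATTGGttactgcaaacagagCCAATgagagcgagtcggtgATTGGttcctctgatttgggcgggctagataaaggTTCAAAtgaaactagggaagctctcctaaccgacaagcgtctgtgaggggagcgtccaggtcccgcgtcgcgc
Cenpf: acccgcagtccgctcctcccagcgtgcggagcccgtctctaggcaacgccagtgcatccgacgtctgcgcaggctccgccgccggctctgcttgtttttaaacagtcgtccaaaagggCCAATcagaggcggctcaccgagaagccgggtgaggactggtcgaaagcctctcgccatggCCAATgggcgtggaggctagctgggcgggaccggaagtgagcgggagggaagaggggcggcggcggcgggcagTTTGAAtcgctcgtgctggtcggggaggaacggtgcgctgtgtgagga
Ube2c held 1 CHR match and 6 CCAAT matches, of which one pair overlaps within CCAATTGG. Cdk1 held 2 and 3, Top2a held 2 and 6, and Cks2 held none of the CHR core and 4 CCAAT matches. The promoter of Cenpf had both elements as well, with 1 CHR match and 2 CCAAT matches. Of the 48 genes, 39 were matched in the promoter table. The CHR core was present in 29 of the 39 (74.4%) and in 18.1% of all 27025 promoters of the table, and the CCAAT box in 29 of 39 (74.4%) and in 37.9% of all. Both were present in 25 of the 39 (64.1%), beside 7.12% of all. A match is a stretch of letters and not a measured binding site.

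Of the 10 kinases, cyclins and their activators, the 8 whose WT mean alone reached the minimum of 0.1 FPKM all rose, as deposited and after scaling. Cdc25c and Melk entered the test only through their RBX2iCKO level, and they passed as deposited, Melk not after scaling (limma adjusted p = 0.0583). Cdk1, the kinase that drives mitotic entry, was 0.131, 0.258, 0.207 and 0.215 FPKM across the WT libraries, against 2.44, 1.91, 0.988 and 1.17 across RBX2iCKO. The groups were far apart, the lowest RBX2iCKO library standing above the highest WT library, and the mean went from 0.203 ± 0.0527 to 1.63 ± 0.671 FPKM (SD, n = 4 each), an 8.03-fold ratio (log2 difference 1.09, SE 0.16, limma adjusted p = 0.00329). Cks2, a small subunit bound to Cdk1, was 0.859, 0.716, 1.51 and 0.897 FPKM across the WT libraries, against 8.71, 4.33, 2.77 and 4.34 across RBX2iCKO. Replicate 1 of RBX2iCKO was the highest for both genes, and the Cks2 difference was 1.53 on the log2 scale (SE 0.26, limma adjusted p = 0.00459).

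Ccnb2, a B-type cyclin, was 0.491, 0.129, 0.484 and 0.374 FPKM across the WT libraries, against 5.15, 2.22, 1.11 and 2.45 across RBX2iCKO, a 7.4-fold ratio of means (limma adjusted p = 0.00889). Plk1, the polo-like kinase needed for mitotic entry and spindle assembly, was 0.147, 0.292, 0.181 and 0.282 FPKM across the WT libraries, against 1.98, 1.71, 0.635 and 0.996 across RBX2iCKO, a 5.91-fold ratio (limma adjusted p = 0.00817). Neither gene had overlapping groups. Pbk, a mitotic serine-threonine kinase, was 0.377, 0.0288, 0.202 and 0.387 FPKM across the WT libraries, against 1.3, 0.833, 0.723 and 0.749 across RBX2iCKO (3.63-fold, limma adjusted p = 0.0106), and WT replicate 2 was far below the other libraries. Cyclins A2 and B1 (Ccna2, Ccnb1) and the kinase Aurka rose 6.86, 7.83 and 5.01-fold. The widest ratio in the class belonged to Cdc25c, the phosphatase that activates Cdk1, and rests on very few fragments. Its WT libraries held 2 fragments in all, as recovered from the FPKM, and its RBX2iCKO libraries 59. The ratio of shares was 29.2, with an exact 95% interval of 7.75 to 247 that covers counting error only. The interval would change if the true counts were a multiple of those recovered. Cdc25c was listed at 0 in 2 WT libraries, where 3 fragments would have allowed 0.0835 and 0.0766 FPKM.

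Among the spindle checkpoint and APC/C genes, 4 of 6 rose as deposited and 3 after scaling. Ube2c, the ubiquitin-conjugating enzyme that works with the APC/C, had the smallest p of the 48 genes. It was 0.345, 0.271, 0.409 and 0.182 FPKM across the WT libraries, against 8.66, 3.96, 2.18 and 3.53 across RBX2iCKO, and its lowest RBX2iCKO library stood well above every WT library. The mean went from 0.302 ± 0.0975 to 4.58 ± 2.82 FPKM (SD, n = 4 each), a 15.2-fold ratio (log2 difference 1.98, SE 0.28, limma adjusted p = 0.00277, and 0.00355 after scaling). Cdc20, the activator that brings substrates to the APC/C, was 0.422, 0.636, 0.694 and 0.445 FPKM across the WT libraries, against 4.85, 3.05, 1.42 and 2.05 across RBX2iCKO (5.17-fold, limma adjusted p = 0.00724). Bub1b, which encodes the checkpoint protein BubR1, was 0.501, 0.257, 0.393 and 0.278 FPKM across the WT libraries, against 1.32, 1.35, 0.706 and 0.91 across RBX2iCKO (3.0-fold, limma adjusted p = 0.00851). For both genes the groups stood apart. Mad2l1, the checkpoint protein that holds Cdc20, rose 1.97-fold as deposited but had an adjusted p of 0.0764 by limma after scaling. The checkpoint kinases Bub1 and Ttk had adjusted p of 0.0706 and 0.119 by limma, and in both RBX2iCKO replicate 3 lay within the WT range.

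**Figure D2:**
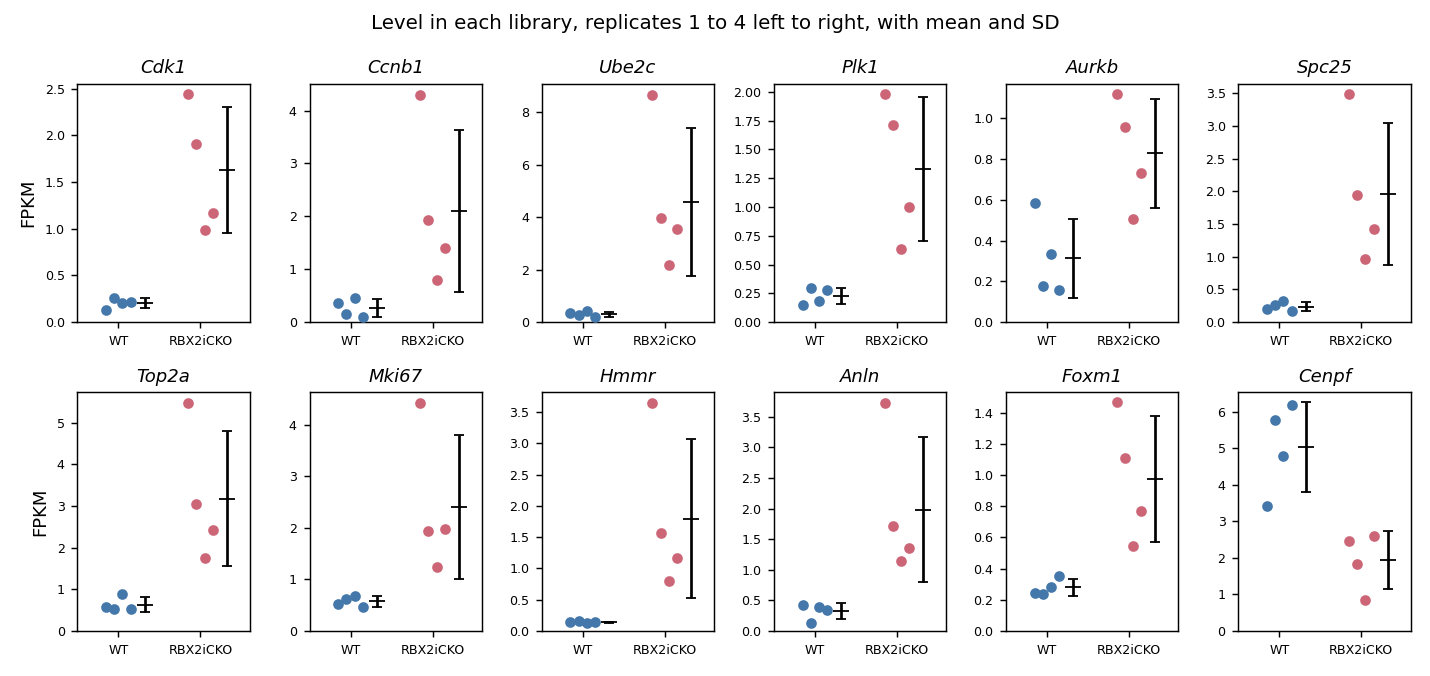
FPKM of selected genes in each library (points, replicates 1 to 4 from left to right), with the mean of each group (tick) and its SD (error bar, n = 4). The groups of Ube2c, Cdk1 and the other genes that rose do not overlap, Aurkb excepted, and Cenpf shows the opposite order, with WT between 3.43 and 6.18 FPKM and RBX2iCKO between 0.847 and 2.61.

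The kinetochore genes moved in both directions. Of 7, 5 rose and 1 fell as deposited, and 3 rose and 1 fell after scaling. Spc25, a subunit of the Ndc80 complex that grips microtubule ends, was 0.202, 0.265, 0.319 and 0.166 FPKM across the WT libraries, against 3.48, 1.95, 0.971 and 1.43 across RBX2iCKO (8.22-fold, log2 difference 1.19, SE 0.21, limma adjusted p = 0.00585). Ndc80 itself was 0.196, 0.113, 0.226 and 0.141 FPKM across the WT libraries, against 1.26, 0.611, 0.589 and 0.564 across RBX2iCKO (4.47-fold, limma adjusted p = 0.0109). Replicate 1 of RBX2iCKO thus stood alone for Ndc80, with the other 3 close together and still above WT. Nuf2, the partner of Ndc80, rose 4.5-fold as deposited and had an adjusted p of 0.0687 by limma after scaling. Spc24, the partner of Spc25, averaged 2.77 ± 0.439 FPKM (WT) and 2.8 ± 0.83 FPKM (RBX2iCKO; SD, n = 4 each), with a log2 difference of -0.01 and an SE of 0.16, so the 4 subunits of that complex did not all pass the test. Cenpe, a kinetochore motor, rose 4.49-fold. Ska1, of the complex that couples kinetochores to microtubules, had 6 recovered fragments in all WT libraries and 45 in all RBX2iCKO libraries. The ratio of shares was 7.44 (exact 95% interval 3.16 to 21.3, counting error of the recovered fragments only). Ska1 did not pass the test (limma adjusted p = 0.0788).

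Cenpf, a large kinetochore and nuclear matrix protein that is best known as a marker of G2 and M phase, ran against the other 47. It was 3.43, 5.77, 4.78 and 6.18 FPKM across the WT libraries, against 2.45, 1.84, 0.847 and 2.61 across RBX2iCKO. Every RBX2iCKO library lay below every WT library, and the means of 5.04 ± 1.23 and 1.94 ± 0.799 FPKM (SD, n = 4 each) gave a 2.6-fold lower level (log2 difference -1.06, SE 0.23, limma adjusted p = 0.0107, and -1.26 with adjusted p = 0.00749 after scaling). The fall held with any one library left out. Unlike most of the 48, Cenpf was well detected in WT, at a level above the median gene. Its lowest value was in RBX2iCKO replicate 3, the library that was also lowest for 43 of the other 47 genes. Cenpa, the histone variant that marks centromeres, was the most abundant of the 48, at 20.3, 15.4, 22.4 and 18.5 FPKM across the WT libraries, against 22.8, 30.1, 24.2 and 23.8 across RBX2iCKO. The groups only just separated, and the 1.32-fold rise (limma adjusted p = 0.0422) was lost after scaling (adjusted p = 0.464).

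Of the 9 genes of the chromosomal passenger complex, condensin and chromosome structure, the 8 whose WT mean alone reached the minimum all rose as deposited, and 4 of the 8 after scaling. Top2a, the topoisomerase that untangles sister chromatids, was 0.579, 0.532, 0.886 and 0.518 FPKM across the WT libraries, against 5.48, 3.06, 1.76 and 2.42 across RBX2iCKO (5.06-fold, log2 difference 1.29, SE 0.23, limma adjusted p = 0.0055). Smc4, an ATPase of condensin, was 3.65, 3.73, 3.92 and 4.05 FPKM across the WT libraries, against 11.7, 6.24, 6.99 and 7.8 across RBX2iCKO (2.14-fold, limma adjusted p = 0.00544). The WT libraries were nearly level for Smc4, and RBX2iCKO replicate 1 was the highest for both. Smc2, the partner ATPase, was 0.85, 1.06, 0.746 and 0.82 FPKM across the WT libraries, against 2.12, 1.7, 1.39 and 1.61 across RBX2iCKO (1.96-fold, limma adjusted p = 0.00757). Ncapd2, a regulatory subunit of condensin I, was 4.03, 4.33, 4.65 and 4.36 FPKM across the WT libraries, against 6.68, 6.01, 5.23 and 5.16 across RBX2iCKO, a 1.33-fold ratio that passed as deposited (limma adjusted p = 0.0247) and not after scaling (0.454). Mki67, which encodes the proliferation antigen Ki-67 that coats mitotic chromosomes, went from 0.571 ± 0.101 to 2.4 ± 1.39 FPKM (SD, n = 4 each; limma adjusted p = 0.012, and 0.0266 after scaling). The passenger genes Aurkb, Birc5 and Cdca8 rose 2.65, 3.88 and 3.39-fold as deposited, the groups of Aurkb overlapping, and none of the 3 passed after scaling (limma adjusted p of 0.0781, 0.0697 and 0.0785). The condensin subunit Ncapg, tested only through its RBX2iCKO level, averaged 0.0795 FPKM (WT) and 0.394 FPKM (RBX2iCKO), and had an adjusted p of 0.0297 by limma as deposited and 0.059 after scaling.

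Of the 7 spindle genes, 5 rose as deposited and 4 after scaling. Hmmr, a microtubule-binding protein of the spindle poles, was 0.139, 0.153, 0.128 and 0.137 FPKM across the WT libraries, against 3.64, 1.57, 0.799 and 1.16 across RBX2iCKO. Its WT libraries were close together while the RBX2iCKO libraries were spread widely, and the ratio of means was 12.9 (log2 difference 1.2, SE 0.25, limma adjusted p = 0.0093). Kif4, a chromosome-bound kinesin, was 0.163, 0.119, 0.299 and 0.214 FPKM across the WT libraries, against 1.37, 0.792, 0.541 and 0.718 across RBX2iCKO (4.3-fold, limma adjusted p = 0.01). Kif11, the kinesin that pushes spindle poles apart, and Nusap1, a microtubule bundler, rose 3.05 and 2.86-fold. Tpx2, which targets Aurora A to the spindle, rose 3.84-fold as deposited and had an adjusted p of 0.0588 by limma after scaling. The kinesins Kif15 and Kif2c did not pass the test (limma adjusted p of 0.0704 and 0.0826), and their groups overlapped.

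All 6 cytokinesis genes rose as deposited and 5 after scaling. Prc1, which bundles the microtubules of the central spindle, was 0.504, 0.612, 0.696 and 0.523 FPKM across the WT libraries, against 5.88, 3.49, 1.48 and 2.32 across RBX2iCKO (5.64-fold, log2 difference 1.34, SE 0.26, limma adjusted p = 0.00807). Anln, the scaffold of the contractile ring, was 0.428, 0.128, 0.395 and 0.335 FPKM across the WT libraries, against 3.72, 1.71, 1.15 and 1.35 across RBX2iCKO (6.16-fold, limma adjusted p = 0.00874). Both genes had the same order of RBX2iCKO libraries, replicate 1 the highest and replicate 3 the lowest. Ect2, the exchange factor that activates RhoA at the division plane, was 0.291, 0.109, 0.304 and 0.206 FPKM across the WT libraries, against 0.705, 0.669, 0.545 and 0.549 across RBX2iCKO (2.71-fold, limma adjusted p = 0.00882). Its RBX2iCKO libraries had the smallest SD of the class, 0.082 FPKM. Kif20a, a central spindle kinesin, was 0.409, 0.333, 0.307 and 0.336 FPKM across the WT libraries, against 2.76, 1.5, 0.857 and 1.11 across RBX2iCKO (4.5-fold, limma adjusted p = 0.0115). The centralspindlin pair, Racgap1 and Kif23, rose 4.2 and 2.43-fold, and Kif23 did not pass after scaling (limma adjusted p = 0.0878).

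Of the remaining 3 genes, Cdca3, known in Xenopus for a role in the degradation of the Cdk1 inhibitor kinase Wee1, was 0.547, 0.176, 0.378 and 0.404 FPKM across the WT libraries, against 4.21, 1.89, 0.944 and 1.91 across RBX2iCKO (5.95-fold, limma adjusted p = 0.0118). Its groups did not overlap. The transcription factor genes differed in their calls. Foxm1 went from 0.279 ± 0.0528 to 0.973 ± 0.404 FPKM (SD, n = 4 each; 3.48-fold, limma adjusted p = 0.0131). Mybl2, which encodes B-MYB, averaged 0.104 ± 0.0699 FPKM (WT) and 0.221 ± 0.111 FPKM (RBX2iCKO; SD, n = 4 each) and did not pass the test (limma adjusted p = 0.229).

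Some of these reads could belong to neighbours. How strand was treated in counting is not given in the sources used here, and exons on the opposite strand share 29.3% of the exonic length of Kif20a (with Cdc23), 15.1% of Kif4 (with Pdzd11), 13.4% of Ncapg (with Lcorl), 12.5% of Ccna2 (with Exosc9) and 11.1% of Prc1 (with Rccd1), all of them expressed here. Cdc23 rose 1.3-fold as deposited, from 7.26 to 9.45 FPKM. Near-identical copies of Ccnb1, Mad2l1, Mybl2 and Pbk elsewhere in the genome make their counts less certain.

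**Figure D3:**
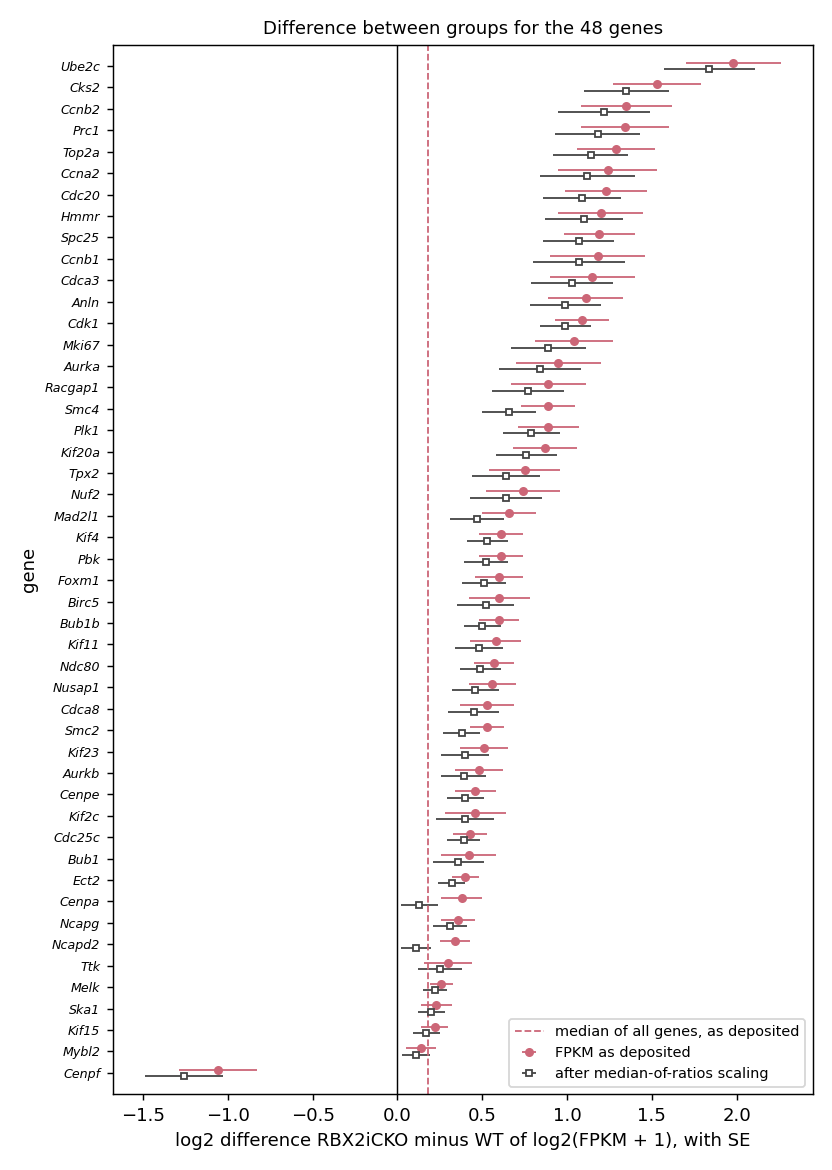
Log2 difference (RBX2iCKO minus WT, log2(FPKM + 1) scale) of each of the 48 genes as deposited and after median-of-ratios scaling, with its standard error (bar); the dashed line is the median of all genes as deposited. Points lie to the right of 0 for 47 genes and to the left for Cenpf, and scaling moves each toward lower values.

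The RBX2iCKO libraries differed widely from each other in these genes, in a like order from gene to gene. Replicate 1 was the highest RBX2iCKO library for 43 of the 48 genes (28.3% of all genes tested), replicate 3 the lowest for 44 (31.0%), and both held for 40 (13.5%). The ratio of replicate 1 to replicate 3 ran from 0.942 to 9.7, with a median of 3.17 beside 1.01 over all genes. Summed over the 48 genes, the level was 46.54, 41.64, 53.53 and 47.08 FPKM across the WT libraries, against 159.2, 109.5, 72.39 and 91.8 across RBX2iCKO. The sums did not overlap, and their means differed 2.29-fold. Without Cenpa, Cenpf, Smc4 and Ncapd2, the 4 genes of highest mean level, the sums were 15.16, 12.4, 17.77 and 14.0 FPKM across the WT libraries, against 115.6, 65.36, 35.14 and 52.4 across RBX2iCKO, a 4.52-fold ratio of means. Among the WT libraries, replicate 3 was the highest for 24 genes (27.4% of all genes) and replicate 2 the lowest for 20 (44.6%).

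The sample titles carry numbers that fall into a lower series (WT replicates 1 and 2, RBX2iCKO replicate 1) and a higher series (the other 5 libraries). What the numbers stand for is not stated. RBX2iCKO replicate 1, the highest library, is the only RBX2iCKO library of the lower series. With the number series as a covariate in limma, 42 genes rose, beside 22.8% of all genes, and Cenpf fell, beside 2.81%. The 42 include Cdc25c, Melk, Ncapg and Ska1, which were tested only through their RBX2iCKO level. The other counts of the 48 in this paragraph were not made without these genes either. Over all libraries as deposited, 80.2% of all genes tested had a positive difference. Within the 5 libraries of the higher series, 47 of 48 differences as deposited were positive with a median of 0.49 (log2). The share of all genes that were positive within these 5 was not computed. There 1 gene rose, Ube2c (limma adjusted p = 0.0397), beside 1.16% of all genes. At an unadjusted p under 0.05 by limma, 34 had a positive difference and 1, Cenpf, a negative one. The share of all genes at that unadjusted p was not computed, so these 2 counts have no background. None fell (0.232% of all genes did), Cenpf having an adjusted p of 0.0868 by limma. Without RBX2iCKO replicate 1, 35 of 48 rose, beside 18.9% of all genes, and 21 after scaling, beside 3.94%. Cenpf fell in both, beside 1.85% and 5.92%. With each library left out in turn, 28 to 44 rose as deposited and 11 to 40 after scaling, beside 2592 to 4411 and 577 to 1282 of all genes. After scaling the count was 18, 11, 16 and 15 without WT replicates 1 to 4 in turn, beside 731, 577, 646 and 699 of all genes. The count of the 48 was 15 without RBX2iCKO replicate 2, beside 654 of all genes. It was highest without RBX2iCKO replicate 3, the library nearest to WT. Ube2c passed in all 26 other settings, and Anln, Cdc20, Cdk1, Cenpf, Cks2, Hmmr, Plk1, Prc1, Spc25 and Top2a in 25, the fit within the higher series being the exception.

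The summed markers of fibroblasts, macrophages and endothelial cells had the same order of RBX2iCKO libraries as the mitotic genes. In bulk tissue, more cells of a type and more RNA per cell cannot be told apart. The summed level of 8 fibroblast markers was 541.9, 347.7, 368.6 and 444.5 FPKM across the WT libraries, against 1386, 1022, 806 and 985.4 across RBX2iCKO, and 8 of 8 rose (7 after scaling). The sum of 8 macrophage markers was 135.3, 97.76, 98.53 and 115.1 FPKM across the WT libraries, against 231.9, 202.6, 101.1 and 156.2 across RBX2iCKO, and 4 rose (2 after scaling). That of 8 endothelial markers was 170.4, 171.7, 174.8 and 227.2 FPKM across the WT libraries, against 269, 256, 223.5 and 243.6 across RBX2iCKO, and 4 rose. None of the 8 did after scaling or with voom by limma. At an unadjusted p under 0.05 by limma after scaling, 2 were higher and 1, Kdr, was lower. In all 3 sums replicate 1 was the highest RBX2iCKO library, followed by replicates 2, 4 and 3. The single markers shared this order less. Replicate 1 was the highest and replicate 3 the lowest for 3 fibroblast, 4 macrophage and 3 endothelial markers of 8 each. Both held for 40 of the 48 mitotic genes and for 13.5% of all genes tested. Of all genes tested 26.4% rose as deposited, 6.44% after scaling and 6.53% with voom. The part of these cells in the result was not tested.

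Erythroid, neutrophil, T and NK cell and mural sums ran in other orders. Erythroid markers summed to 200.1 to 540 FPKM in WT and to 3622, 341.1, 385.6 and 354 FPKM in RBX2iCKO. Replicate 1 of RBX2iCKO was thus far above the others. None of the 5 passed limma or voom over all libraries. None had an unadjusted p under 0.05 by limma there, as deposited or after scaling. Within the libraries of the higher title numbers, 1 was higher at that unadjusted p by limma. The summed level of neutrophil markers was 4.506 to 8.338 FPKM in WT, against 32.3, 13.88, 23.4 and 6.769 across RBX2iCKO (2 of 4 tested rose; by limma none did after scaling or with voom, and 3 were higher at an unadjusted p under 0.05 after scaling), and that of T and NK cell markers was 1.562 to 6.86 FPKM in WT, against 11.51, 8.336, 5.993 and 2.829 across RBX2iCKO (0 of 6 called by limma or voom, 1 at an unadjusted p under 0.05). Of the 6 mural markers 2 rose and 1 fell (1 and 1 after scaling), and their sum was 232.8 to 296.3 FPKM in WT, against 290.2, 278.8, 203.9 and 316.7 across RBX2iCKO. Of the atrial markers 1 of 4 rose, Nppa. Of the 2 B cell markers tested none was called by limma or voom, 1 having an unadjusted p under 0.05. The B cell sums were low, at 0.3916 to 0.8822 FPKM in WT, against 1.49, 1.451, 0.587 and 0.5955 across RBX2iCKO, in the order of the mitotic genes. Of the 8 ventricular cardiomyocyte markers 1 rose and 1 fell, and 3 fell after scaling. Their sums were 30610 to 32690 FPKM across the WT libraries, against 28350, 32600, 33350 and 33160 across RBX2iCKO. Beside these marker counts, 26.4% of all genes tested rose and 2.73% fell as deposited. After scaling the shares were 6.44% and 8.65%.

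**Figure D4:**
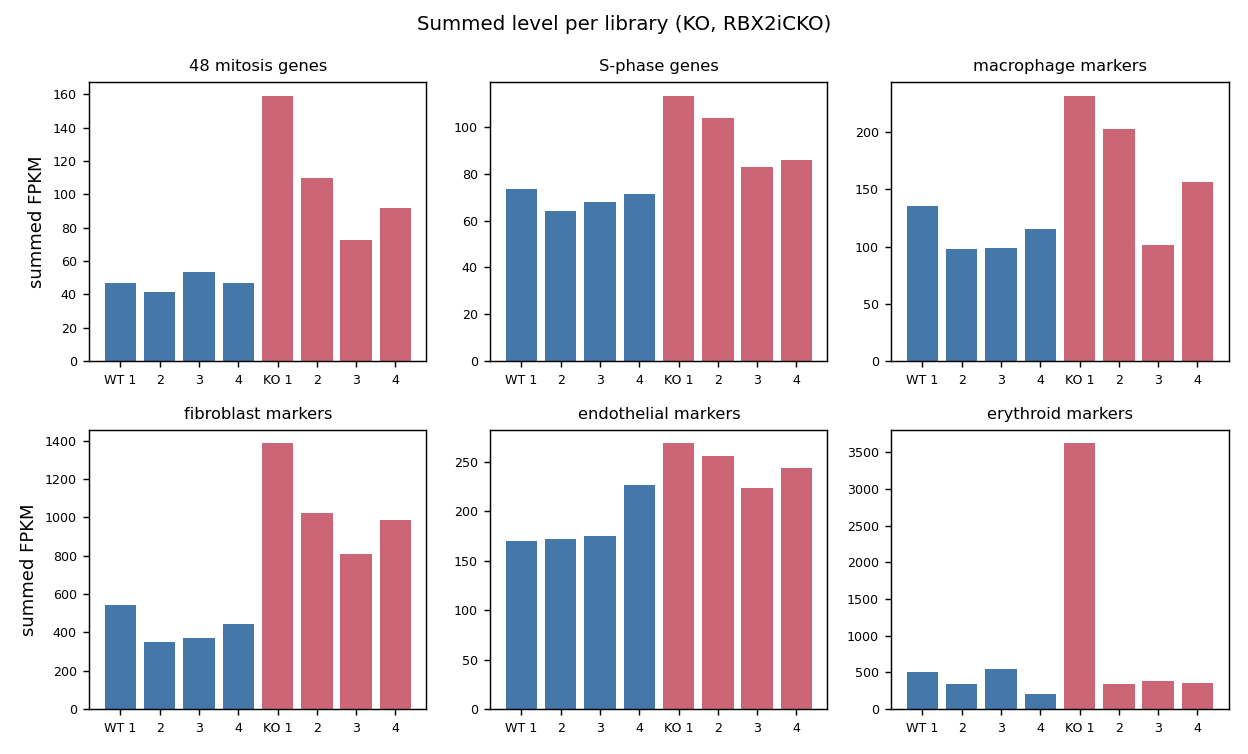
Summed FPKM in each library for the 48 mitosis and cytokinesis genes and for other lists (bars, WT in blue and RBX2iCKO, written KO, in red). The mitotic genes lie between 41.64 and 53.53 FPKM for WT and between 72.39 and 159.2 FPKM for RBX2iCKO, with replicate 1 the highest, and the fibroblast, endothelial and macrophage sums have the same order of RBX2iCKO libraries.

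Other genes of the division cycle were counted for comparison. Of 63 tested among 64 further mitosis genes, 41 (65.1%) rose and none fell as deposited by limma (nor at an unadjusted p under 0.05). After scaling 19 rose and 1 (Zwint) fell. Over all genes tested 26.4% rose and 2.73% fell as deposited, and 6.44% rose and 8.65% fell after scaling. Those with the smallest p were Kifc1, a minus-end kinesin that focuses spindle poles, which rose 5.3-fold (limma adjusted p = 0.00318), the centrosomal kinase gene Nek2 (6.92-fold, 0.00344), Pimreg (6.83-fold, 0.00361) and Arhgap11a, a RhoA regulator (3.5-fold, 0.00387). Partners of the genes above differed in their calls. Incenp, the scaffold of the passenger complex, rose 1.71-fold as deposited (limma adjusted p = 0.0371, and 0.171 after scaling). Of the other condensin subunits, Ncapg2 rose 2.16-fold on both scales (limma adjusted p = 0.00908, and 0.0294 after scaling), Ncaph rose 2.54-fold as deposited (0.048, and 0.119 after scaling), and Ncaph2 and Ncapd3 did not pass (0.105 and 0.26 as deposited). The kinetochore scaffold gene Knl1 did not pass as deposited either (limma adjusted p = 0.0614).

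Complexes that act with these genes were counted as well. Of 15 APC/C subunit and activator genes 5 rose as deposited, Anapc7 (1.34-fold), Cdc23 (1.3-fold), Cdc16 (1.22-fold), Cdc27 (1.35-fold) and Anapc10 (1.47-fold), and after scaling none rose by limma, voom or at an unadjusted p under 0.05, and 1 fell, Anapc5. Of 11 genes of the DREAM and MuvB complexes, which regulate the mitotic genes, 2 rose as deposited, Lin9 (1.56-fold) and E2f5 (1.5-fold). After scaling none rose by limma, voom or at an unadjusted p under 0.05, and 1 was lower at that unadjusted p by limma. Of 12 cohesin genes 4 rose as deposited, Mau2, Stag2, Stag1 and Nipbl, by 1.23 to 1.38-fold, and after scaling none by limma, voom or at an unadjusted p under 0.05. The widest ratio among the cohesin genes was 2.41, for the acetyltransferase gene Esco2, which did not pass the test (limma adjusted p = 0.132). Over all genes 26.4% rose as deposited and 6.44% after scaling.

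Of 37 S-phase genes tested among 38, 14 (37.8%) rose as deposited, beside 26.4% of all genes tested. After scaling 5 of the 37 rose, beside 6.44% of all genes. Mcm7, of the replicative helicase, was 2.64, 2.91, 3.04 and 3.28 FPKM across the WT libraries, against 6.53, 5.77, 5.65 and 4.7 across RBX2iCKO (limma adjusted p = 0.0024). Rrm2, the ribonucleotide reductase subunit, was 1.08, 0.746, 1.18 and 1.15 FPKM across the WT libraries, against 8.51, 5.94, 2.86 and 3.37 across RBX2iCKO (4.97-fold, limma adjusted p = 0.0049). E2f1, the transcription factor of G1 and S phase genes, rose 3.38-fold and the thymidylate synthase gene Tyms 1.99-fold. The sum over the S-phase genes was 73.3, 64.05, 67.92 and 71.32 FPKM across the WT libraries, against 113.3, 103.8, 83.0 and 85.61 across RBX2iCKO, in the same order of RBX2iCKO libraries as the mitotic genes. Gene by gene, RBX2iCKO replicate 1 was the highest and replicate 3 the lowest for 18 of the 37. Whether S-phase and mitotic genes differed in their change was not tested.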

How the data were processed

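RNA sequencing of polyA RNA from ventricles, minced in RNAlater and extracted with TRIzol per the labels' protocols, was analysed in 4 WT and 4 RBX2iCKO libraries, grouped by the genotype label. The authors deposited FPKM values, in 1 column per library. Per the submitters' processing notes the genome was mm10. Aligner, counting tool and strand handling: not given in the sources used here. Symbols came from GENCODE M21, in which 34490 of 35275 identifiers were found. No label ties each library to its own mouse. The p-values therefore reflect variation among these 8 samples, some of which may be technical.

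Genes with a mean of at least 0.1 FPKM over the 8 libraries were kept (16363). This minimum is low because mitotic genes are low in adult ventricle: at 0.5 FPKM, 36 of the 48 would be tested. All 48 were tested, 44 of them with a WT mean alone above the minimum. Log2(FPKM + 1) was compared by limma 3.58.1 (R 4.3.3; lmFit, eBayes with a trend), two-sided, with Benjamini-Hochberg adjustment over all genes tested and a threshold of 0.05. "Rose" and "fell" mean past that threshold, and a fold is the RBX2iCKO mean FPKM divided by the WT mean. The method was tested on simulated data without a shift in library make-up. Only genes above a set number of WT fragments were given a change, and many of the 48 lie below it. The simulation therefore cannot bear on the calls of those genes. Whole fragments were recovered from the deposited FPKM within a tolerance of 0.001, for 16362 of the 16363 genes. The annotated length fitted for 15.7% of the genes tested. Otherwise the smallest fitting length was taken, for low genes none shorter than the shortest transcript where possible. True counts could thus be a multiple of those recovered. In these libraries 1 fragment in 1 kilobase was worth 0.0434 to 0.054 FPKM. Scaling used median-of-ratios factors from 0.85 to 0.9452 in WT and 1.077 to 1.128 in RBX2iCKO.

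Members and gene lists were chosen with earlier results of these data known. Values are given for the 20 genes past the threshold with the smallest p, the 4 of highest mean level, the smallest p of each role class and up to 4 genes per further list. Other genes named with values were chosen after their values were seen. Other steps used scipy 1.17.1, numpy 2.4.6, pandas 2.3.3 and matplotlib 3.10.9 under Python 3.11.15.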

Additional observations from a re-analysis of the deposited data

Results flagged for a closer look

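Of 126 groups of 4 libraries examined (the genes and the summed marker levels, in each genotype), 10 had a library that stood apart from the other 3 by Dixon's criterion at the 95% level, where chance gives about 6. Top2a was 0.886 FPKM in WT replicate 3 and 0.518 to 0.579 in the other WT libraries. Ndc80 was 1.26 FPKM in RBX2iCKO replicate 1 and 0.564 to 0.611 in the others of its group. Ncapg was 0.15 FPKM in WT replicate 1 and 0.0499 to 0.0626 in the others. Ska1 was listed at 0 in WT replicate 4, where 3 fragments would have allowed 0.0498 FPKM, and at 0.0371 to 0.0405 FPKM in the others. Mybl2 was listed at 0 in WT replicate 2, where 3 fragments would have allowed 0.0407 FPKM, and at 0.134 to 0.148 FPKM in the others.

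The summed ventricular cardiomyocyte markers were 28400 FPKM in RBX2iCKO replicate 1 and 32600 to 33400 in the others of its group, and the summed erythroid markers were 3620 FPKM there and 341 to 386 in the others. The summed atrial markers were 1060 FPKM in RBX2iCKO replicate 2 and 394 to 458 in the others. Nppa was 448, 416, 392 and 281 FPKM across RBX2iCKO. Myl7 was 5.24, 361, 1.32 and 94.8 FPKM there, and 237, 52.7, 0.422 and 10.6 FPKM across WT. Among the RBX2iCKO libraries, Myl4 and Sln were likewise highest in replicate 2. The summed endothelial markers were 227 FPKM in WT replicate 4 and 170 to 175 in the others, and the summed B cell markers were 0.882 FPKM in WT replicate 1 and 0.392 to 0.417 in the others.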

How the results depend on the processing

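No paired analysis was possible because the groups share no replicate numbers in the labels. Cenpf fell in every setting but the fit within the libraries of the higher title numbers, and no gene of the 48 changed sign. The count of the 48 genes that rose was 41 with a pseudocount of 0.5, 42 with 0.1 and 37 with no filter. Cdc25c, Melk, Ncapg and Ska1 were not set apart in the counts of the 48 given here. Within the libraries of the higher title numbers, 1 rose and 0 fell, beside 189 and 38 of all genes and 0 of each further list by limma. At an unadjusted p under 0.05 by limma, 28 of the further mitosis genes and 12 S-phase genes were higher there. The share of all genes at that unadjusted p was not computed. The median log2 difference of the 48 was 1.53 with a pseudocount of 0.1 and 1.72 with limma voom. After scaling, all genes gave 1053 rises and 1415 falls, further mitosis genes 19 and 1, APC/C genes 0 and 1, DREAM and MuvB genes 0, cohesin genes 0 and S-phase genes 5. With voom these were 1069 and 1407, 27 and 1, 0 and 1, 0, 0 and 5. With mitochondrial-encoded genes removed they were 1982 and 684, 27 rises, 1, 0, 0 and 9. Further mitosis genes gave 23 rises with the minimum at 0.5 FPKM, and APC/C genes 2 with no filter. The cause of these shifts was not tested.

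With each library left out in turn, as deposited and then after scaling, the rises were 28 to 44 and 11 to 40 for the 48 genes, 2592 to 4411 and 577 to 1282 for all genes, 19 to 41 and 10 to 30 for further mitosis genes, 2 to 5 and 0 for APC/C genes, 1 to 3 and 0 for DREAM and MuvB genes, 2 to 3 and 0 for cohesin genes and 9 to 18 and 3 to 9 for S-phase genes. Further mitosis genes gave 19, 24, 22 and 23 rises as deposited without WT replicates 2, 3 and 4 and RBX2iCKO replicate 2, and all genes 2592 and 2852 without WT replicate 2 and RBX2iCKO replicate 2. Falls were 303 to 443 and 957 to 1439 for all genes, 0 and 1 for further mitosis genes, 0 and 0 to 1 for APC/C genes and 0 and 0 to 2 for DREAM and MuvB genes. The median of the 48 ranged from 0.5 to 0.71 and from 0.4 to 0.59, the Rnf7 difference from -2.26 to -2.19 and from -2.51 to -2.45, and the log2 ratio of the summed level (1.2) from 0.95 to 1.35. Most of the 48 genes lie under 1 FPKM in WT, where few fragments limit the precision.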
